A study of Mus musculus with 8 samples.

Results

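The 58 genes described here encode components of the lysosome and of the autophagy machinery. They were taken from a fixed list of symbols and comprise 7 lysosomal membrane proteins, 25 hydrolases, 3 soluble cofactors, 2 transcriptional regulators and 21 autophagy factors. Every one of the 58 had at least 1 array probe, and 56 passed the filter on dim probes, among 24921 genes or transcripts tested in all. RNA was measured in livers of female B6C3F1 mice, a hybrid mouse strain used in toxicology, bought at 5 to 6 weeks of age and acclimatised for at least 7 days. The furan group, replicates 41, 42, 43 and 44, received 8 mg per kg body weight of furan dissolved in corn oil by oral gavage for 21 days. The vehicle group, replicates 2, 3, 4 and 6, received corn oil alone by the same route. Necropsy followed the final gavage by 4 hours, the livers were snap frozen, and each animal was hybridised to 1 array of a single slide with the Cy3 dye. Furan is a volatile ring compound that forms in heated food and is toxic to rodent liver.

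Lysosomes are acidic organelles in which hydrolases break down proteins, glycans and lipids. Autophagy is the process that encloses cytoplasm in a double membrane and delivers it to them. In liver both serve the turnover of organelles and the supply of nutrients during fasting, and the resident macrophages, the Kupffer cells, are rich in lysosomal proteases. The basic helix-loop-helix factors TFEB and TFE3 are known to bind an E-box with the core CACGTG in promoters of lysosomal and autophagy genes.

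Promoter letters are shown for 5 of these genes because they set the E-box content of the promoter beside the change measured in the livers. RefSeq windows on GRCm38.p6, running from 250 bases before to 50 bases after an annotated start, were found for 50 of the 58 genes. The other 8, with no entry in that table, were Npc1, Ctsb, Ctsh, Asah1, Becn1, Atg12, Atg16l1 and Map1lc3a. Lamp1 and Mcoln1 are lysosomal membrane genes whose windows hold the core. Cd63, Gusb and Tfe3 are the 3 genes that rose in furan livers. Sequences run 5′ to 3′ on the strand of the gene, and capitals mark CACGTG, which is its own reverse complement. Tfe3 has 2 windows, for an upstream and a downstream start.
Lamp1 promoter, chr8:13158911-13159210, plus strand: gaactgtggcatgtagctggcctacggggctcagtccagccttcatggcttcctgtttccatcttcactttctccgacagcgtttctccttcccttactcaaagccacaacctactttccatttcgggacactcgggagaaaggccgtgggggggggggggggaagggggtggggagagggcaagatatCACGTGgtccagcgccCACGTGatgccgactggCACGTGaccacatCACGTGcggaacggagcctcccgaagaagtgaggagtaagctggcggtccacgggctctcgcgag
Mcoln1 promoter, chr8:3500269-3500568, plus strand: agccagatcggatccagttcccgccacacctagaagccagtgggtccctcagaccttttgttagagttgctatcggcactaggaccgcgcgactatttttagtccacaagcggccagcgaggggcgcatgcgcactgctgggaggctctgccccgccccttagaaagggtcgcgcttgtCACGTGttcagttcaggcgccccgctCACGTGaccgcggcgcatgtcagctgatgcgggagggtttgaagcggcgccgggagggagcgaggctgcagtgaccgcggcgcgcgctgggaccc
Cd63 promoter, chr10:128909095-128909394, plus strand: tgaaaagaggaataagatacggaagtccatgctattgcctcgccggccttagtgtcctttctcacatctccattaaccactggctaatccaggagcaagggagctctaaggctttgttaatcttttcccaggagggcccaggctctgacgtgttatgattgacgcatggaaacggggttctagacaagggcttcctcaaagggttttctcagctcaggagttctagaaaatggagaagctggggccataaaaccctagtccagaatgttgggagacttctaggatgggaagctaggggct
Gusb promoter, chr5:130003000-130003299, minus strand: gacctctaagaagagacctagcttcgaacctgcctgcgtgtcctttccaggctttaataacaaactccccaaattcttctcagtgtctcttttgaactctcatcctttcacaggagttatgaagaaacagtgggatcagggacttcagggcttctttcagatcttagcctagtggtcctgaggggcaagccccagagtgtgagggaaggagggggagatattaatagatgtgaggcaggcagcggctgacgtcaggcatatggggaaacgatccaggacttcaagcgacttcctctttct
Tfe3 upstream promoter, chrX:7762411-7762710, plus strand: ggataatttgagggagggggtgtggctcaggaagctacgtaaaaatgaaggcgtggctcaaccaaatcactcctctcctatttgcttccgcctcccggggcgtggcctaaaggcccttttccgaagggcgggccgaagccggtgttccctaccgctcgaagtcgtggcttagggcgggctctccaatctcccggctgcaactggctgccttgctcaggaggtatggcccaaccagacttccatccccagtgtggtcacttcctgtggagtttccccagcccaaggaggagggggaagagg
Tfe3 downstream promoter, chrX:7763693-7763992, plus strand: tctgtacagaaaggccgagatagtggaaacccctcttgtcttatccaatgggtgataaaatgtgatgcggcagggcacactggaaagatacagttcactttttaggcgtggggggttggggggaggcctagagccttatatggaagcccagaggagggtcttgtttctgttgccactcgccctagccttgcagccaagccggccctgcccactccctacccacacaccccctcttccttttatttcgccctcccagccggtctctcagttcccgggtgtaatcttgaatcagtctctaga
The Lamp1 window held the core 4 times, at positions -61, -45, -28 and -15 counted from the start, and the Mcoln1 window held it at -71 and -45. No CACGTG was found in these windows of Cd63, Gusb or Tfe3, which says only that those letters are absent there.

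A level is the log2 of a probe signal after division by the 75th percentile of that array. A change is the furan mean less the vehicle mean. Between 55.8% and 69.4% of the probe spots were well above background on the furan arrays and between 55.1% and 86.2% on the vehicle arrays, where vehicle replicate 2 had the highest share. That array also had the highest median processed signal of probe spots, 130.4, against 32.5 to 48.2 on the other 7. Each of the 56 tested genes was well above background on all 8 arrays. The 2 below the filter were Atg4a, whose protease trims Atg8-family proteins, with its probe well above background on 1 array, and Galc, the galactosylceramidase gene, on 0. The livers expressed their defining genes: all 10 hepatocyte markers, among them Alb, Apob and Cps1, were well above background on all 8 arrays. The labels do not give the blocks of the randomised block design, so none is in the fit. With 4 animals in a group, their number limits the precision of each value.

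Of the 56 genes, 3 were higher and 0 lower in furan livers at an adjusted p under 0.05 in limma with Benjamini-Hochberg adjustment over all 24921. The risers were Cd63, a tetraspanin of late endosomes and lysosomes, at 3.16-fold, Tfe3, one of the regulators, at 1.63-fold, and Gusb, the beta-glucuronidase, at 1.41-fold. That is 5.36% of the 56, beside 4.09% of all features called (2.78% higher and 1.31% lower). With this scaling, the share called among these genes was near that of the array as a whole. The groups did not overlap, with furan higher, for 4 genes, or 7.14%, against 10.6% of all features, and with furan lower for 3, or 5.36%, against 7.45%. An unadjusted p under 0.05 was reached by 12 genes, or 21.4%, against 23.8% of all features. The median change of the 56 was -0.06, against -0.09 for all features, an order that depended on the scaling and on the filter.

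The count and direction of the calls depended on the scaling. Against 3 higher and 0 lower with the 75th percentile, quantile normalization gave 3 higher and 3 lower. Normexp background correction followed by quantile normalization and the authors' deposited value table each gave 4 and 4. The calls over all features were 3.61%, 5.26% and 6.69% in these settings. With array weights there were 4 higher and 5 lower, and with trend and robust in eBayes 4 and 2, beside 8.05% and 7.85% of all features. In each of these alternatives the share called was higher among the 56 than among all features, and this difference was not tested. With the filter on all 8 arrays there were 4 higher and 0 lower, beside 8.02% of 21348 features. There the share called was lower among the 56 than among all features. With a median shift, or with no shift, 1 was higher and 0 lower. Without vehicle replicate 2 there were 2 higher and 2 lower, beside 3.78% of all features called. Over all features, 692 were higher and 327 lower with the 75th percentile, 84 and 1 with a median shift, and 230 and 31 with no shift. The median change of the 56 lay below that of all features with quantile normalization (-0.11 against 0.05) and normexp plus quantile normalization (-0.12 against 0.02). It was also below in the authors' table (-0.14 against 0.01), and without vehicle replicate 2 (-0.10 against -0.07). With the filter on all 8 arrays it was below as well (-0.059 against -0.047). It lay above with a median shift (0.43 against 0.39) and with no shift (0.07 against 0.03). Each of these settings moves the changes of all genes by nearly 1 amount, so the order found with the 75th percentile had to hold. The median of the 56 less that of all features was 0.0355 with the 75th percentile, 0.0354 with a median shift and 0.0358 with no shift. The number called was 1 without furan replicate 41, without furan replicate 42 and without furan replicate 43, namely Cd63. Each slide column holds 1 furan and 1 vehicle array. Blocking on it, limma called 0 of the 56, with 8 at an unadjusted p under 0.05, and 0 of all features.

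For the 53 genes that did not pass, the size of change that the data allow can still be given. The 95% interval of the change lay within 2-fold in either direction for all 53 and within 1.5-fold for 39. These intervals are relative to the 75th percentile of the array and are not adjusted for the number of genes. The 14 with wider intervals were Mcoln1, Npc1, Ctsf, Ctss, Man2b1, Naglu, Hexa, Grn, Atg12, Atg10, Atg4b, Atg2a, Gabarapl1 and Gabarapl2.

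**Figure D1:**
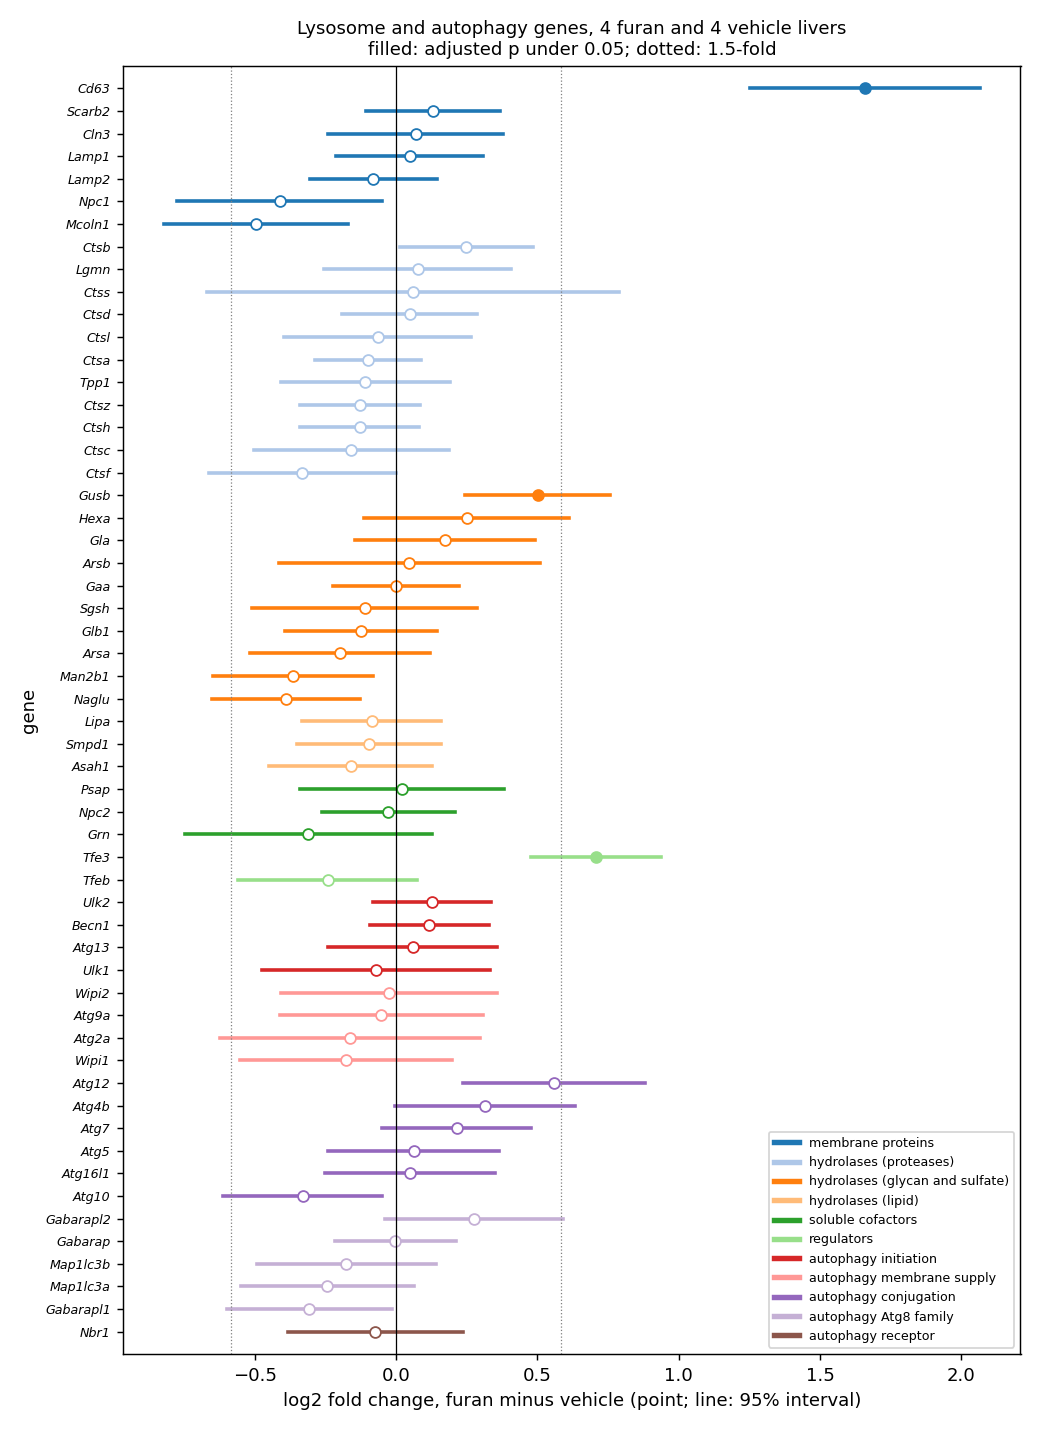
Change in log2 signal (furan minus vehicle, horizontal axis) of each of the 56 tested genes, coloured by role, with its 95% interval as a line. Filled points passed an adjusted p under 0.05 (Cd63, Gusb and Tfe3), and dotted lines mark 1.5-fold. Cd63 at 1.66 lies apart from the other genes, which lie between -0.50 and 0.71.

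Among the 7 membrane proteins, 1 rose, 0 fell and the median change was 0.05, beside 2.78% higher, 1.31% lower and a median of -0.09 for all features. Cd63 had levels of 3.40, 3.30, 4.03 and 3.85 on furan arrays 41, 42, 43 and 44, against 1.85, 1.96, 2.02 and 2.13 on vehicle arrays 2, 3, 4 and 6. The lowest furan liver was above the highest vehicle liver by more than the whole vehicle range. The change was 1.66 ± 0.18 (SE; limma adjusted p = 0.00622), a 3.16-fold rise with a 95% interval from 2.38-fold to 4.18-fold. Within the 4 slide columns, furan minus vehicle was 1.17, 2.08, 1.55 and 1.83, higher in every column. The Cd63 call held whichever of the 8 arrays was dropped (adjusted p = 0.0136 to 0.0303). It was lost only with the slide column as a block (0.0969) among the 13 other alternatives. Cd63 had 1 kept probe, so no second probe could be compared.

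Mcoln1 encodes the lysosomal calcium channel TRPML1, and its level was 4.22, 4.07, 4.32 and 4.09 in furan livers, against 4.37, 4.93, 4.55 and 4.84 in vehicle livers. All 4 furan values were below all 4 vehicle values, with a change of -0.50 ± 0.14 (SE), and it did not pass (adjusted p = 0.0885). It did pass, lower, without vehicle replicate 2 (adjusted p = 0.0477), with quantile normalization (0.0223), with normexp plus quantile (0.0128), in the authors' deposited value table (0.0110), with array weights (0.0210) and with trend and robust (0.0397). With a median shift its change was -0.01, where the median of all features was 0.39.

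Lamp1, the most used lysosomal membrane marker, had levels of 8.26, 8.41, 8.47 and 8.26 in furan livers, against 8.04, 8.42, 8.33 and 8.41 in vehicle livers. The groups overlapped, and the 95% interval of the change ran from -0.21 to 0.31 (adjusted p = 0.796). Lamp2, a partner of Lamp1 and a receptor in chaperone-mediated autophagy, had a change of -0.08 with the probe tested and of -0.15 with a second probe. Npc1, which exports cholesterol from the lysosome, had levels of 2.24, 1.74, 2.16 and 1.94 in furan livers, against 2.11, 2.47, 2.52 and 2.64 in vehicle livers. These overlapped through vehicle replicate 2 only, and the change of -0.41 ± 0.16 (SE) did not pass (adjusted p = 0.170). Npc1 is described after its values were seen, as it passed with normexp plus quantile normalization (0.0491) and with array weights (0.0495). Scarb2, the receptor that carries beta-glucocerebrosidase to the lysosome, and Cln3, the membrane protein mutated in juvenile Batten disease, had changes of 0.13 and 0.07. Further Cln3 probes gave changes of -0.06 and 0.14.

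Among the 24 hydrolases tested, 1 rose, 0 fell, and the median change was -0.10, with 8 changes above 0 and 16 below. This was near the array as a whole, where 9872 of 24921 changes were above 0 and 15049 below, with a median of -0.09. Of all features, 2.78% were called higher and 1.31% lower. Gusb, which removes glucuronic acid from glycosaminoglycans, was the member that rose. It had levels of 2.90, 2.71, 3.07 and 2.82 in furan livers, against 2.19, 2.51, 2.42 and 2.37 in vehicle livers, without overlap. The change was 0.50 ± 0.11 (SE), or 1.41-fold with an interval from 1.19-fold to 1.69-fold, at an adjusted p of 0.0499. The Gusb call was lost whichever of the 8 arrays was dropped. The adjusted p was 0.132, 0.0800, 0.120 and 0.106 on dropping furan 41, 42, 43 or 44, and 0.0700, 0.0703, 0.101 and 0.108 on dropping vehicle 2, 3, 4 or 6. It was also lost with a median shift (0.494), on unshifted values (0.0815), when dim probes were kept (0.137), with the mean of probes (0.0539) and with a block for slide row (0.0726) or for slide column (0.162). Under the 6 scalings tried its change stayed above 0, between 0.40 and 0.99. Gusb had 1 kept probe.

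Naglu, an N-acetylglucosaminidase of heparan sulfate breakdown, stood at the other end of the glycan enzymes. Its levels were 2.98, 3.02, 3.26 and 3.13 in furan livers, against 3.27, 3.66, 3.48 and 3.54 in vehicle livers. The groups were separated by a narrow margin, between furan replicate 43 and vehicle replicate 2. The change was -0.39 ± 0.11 (SE) and did not pass (adjusted p = 0.0918), but it did with quantile normalization (0.0320), with normexp plus quantile (0.0207), in the authors' deposited value table (0.0196), with array weights (0.0269) and with trend and robust (0.0452). Man2b1, the lysosomal alpha-mannosidase, had levels of 5.07, 5.02, 5.14 and 5.19 in furan livers, against 5.15, 5.62, 5.50 and 5.61 in vehicle livers. Only vehicle replicate 2 reached into the furan range, and the change of -0.37 ± 0.12 (SE) had an adjusted p of 0.128. Without vehicle replicate 2 it was -0.47 and passed (adjusted p = 0.0375), as it did with quantile normalization (0.0445), with normexp plus quantile (0.0304), in the authors' deposited value table (0.0166) and with array weights (0.0238). Man2b1 was singled out after its values were seen. The other 7 glycan and sulfate enzymes tested had changes from -0.20 for Arsa, which desulfates sulfatide, to 0.25 for Hexa, a subunit of beta-hexosaminidase. The glycogen-degrading Gaa had a change of -0.00029.

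None of the 11 proteases passed, beside 4.09% of all features. Ctsb, a cysteine protease, had the highest change of the class, with levels of 7.11, 7.29, 7.06 and 7.09 in furan livers, against 6.75, 6.88, 7.08 and 6.85 in vehicle livers. Only vehicle replicate 4 lay within the furan range, and the change of 0.25 ± 0.10 (SE) did not pass (adjusted p = 0.191). Ctsf, another cysteine protease, had the lowest, with levels of 2.35, 2.26, 2.59 and 2.57 in furan livers, against 2.49, 3.03, 2.68 and 2.90 in vehicle livers (change -0.33 ± 0.14 SE, adjusted p = 0.209). The main aspartic protease, Ctsd, had levels of 6.38, 6.21, 6.53 and 6.37 in furan livers, against 6.21, 6.48, 6.28 and 6.33 in vehicle livers. The Ctsd values were interleaved, with a change of 0.05 and an interval from -0.19 to 0.29 (adjusted p = 0.774). A second Ctsd probe gave a change of 0.24.

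Ctss, a cysteine protease of antigen-presenting cells, had levels of 3.41, 3.44, 3.63 and 3.39 in furan livers, against 3.10, 3.10, 4.45 and 2.98 in vehicle livers. A single liver, vehicle replicate 4, was far above the others, and the change of 0.06 ± 0.32 (SE) had an adjusted p of 0.914. Without vehicle replicate 4 it was 0.41 (adjusted p = 0.102). The same liver had the highest macrophage marker signal. Of 15 Kupffer cell and macrophage markers, such as Clec4f, Adgre1 and C1qa, 14 had a probe and all 14 were well above background on all 8 arrays. Their summed linear signal, in units of the 75th percentile, was 175 to 226 in furan livers and 154 to 369 in vehicle livers, the highest being vehicle replicate 4. The median marker stood 0.86 above its vehicle mean there, and between 0.38 below and 0.17 above it in the other 7 livers. None of the 14 passed between the groups. Lgmn, an asparaginyl endopeptidase, Ctsc, which activates granule proteases, Tpp1, a tripeptidyl peptidase, and Asah1, the acid ceramidase, likewise had their highest vehicle value in replicate 4, at 5.15, 3.77, 2.05 and 1.39. Among the 4 vehicle livers, 10 of the 56 genes and 5 of the 11 proteases were highest in replicate 4, against 37 of the 56 and 5 of the 11 in replicate 3. The part of the marker signal in these values was not tested. The 5 sinusoidal endothelial markers all had changes below 0, from -0.49 for Stab2 to -0.00097 for Lyve1, with 0 past the threshold. Among all 24921 features, 15049 had changes below 0 and 4.09% were called. Summed signals of the endothelial markers were 66.2 to 80.8 in furan livers and 80.0 to 97.2 in vehicle livers. Their part in the changes described here was not tested either. Of the 10 hepatocyte markers and the 5 cholangiocyte, 5 stellate and fibroblast and 5 other leukocyte markers, 0 passed in each list. In whole liver, more cells of a type and more RNA per cell cannot be told apart.

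**Figure D2:**
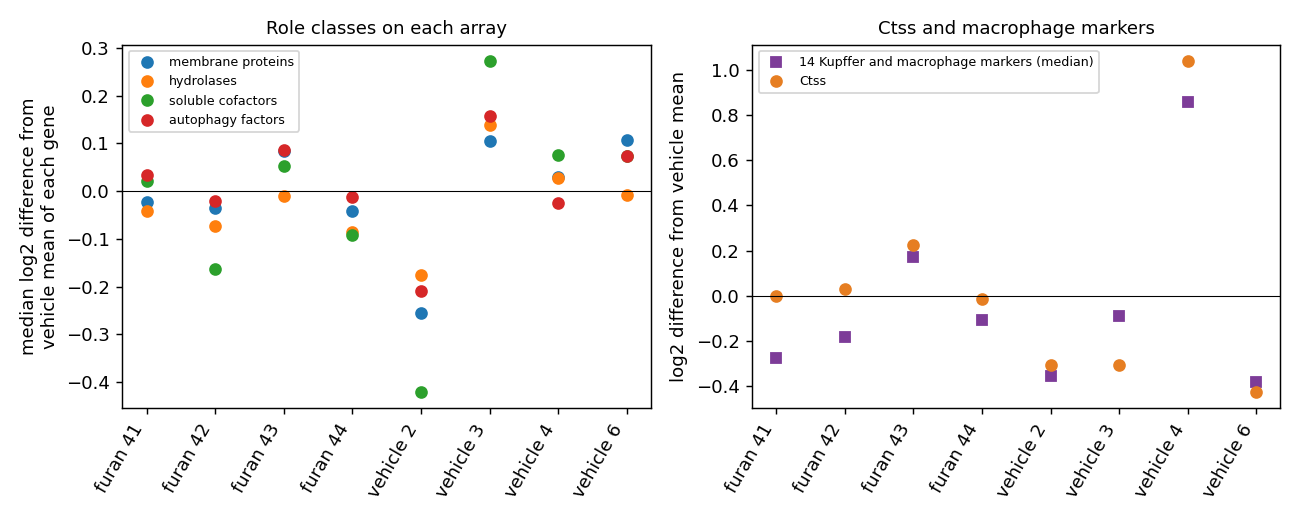
Left, the median over each of 4 role classes (the 2 regulators are not drawn) of the log2 difference from the vehicle mean of each gene, for the 4 furan and then the 4 vehicle arrays, where the 4 classes drawn lie lowest on vehicle replicate 2. Right, the same difference for Ctss and for the median of 14 macrophage markers, both highest on vehicle replicate 4.

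The 3 lipid hydrolases had changes from -0.16 for Asah1 to -0.09 for Lipa, the acid lipase of cholesteryl esters and triglycerides, with none past the threshold. Asah1 levels were 1.13, 1.11, 0.82 and 0.97 in furan livers, against 1.05, 1.24, 1.39 and 0.98 in vehicle livers. Lipa levels were 4.42, 4.20, 4.14 and 4.31 in furan livers, against 4.25, 4.49, 4.46 and 4.22 in vehicle livers, and both genes overlapped between the groups. Of the soluble cofactors, Grn encodes progranulin, a chaperone-like partner of lysosomal enzymes, and had levels of 5.38, 5.12, 5.63 and 5.54 in furan livers, against 5.30, 6.03, 5.62 and 5.95 in vehicle livers (change -0.31 ± 0.19 SE, adjusted p = 0.331). Psap, the precursor of the saposins that present lipids to hydrolases, had levels of 5.53, 5.25, 5.46 and 5.49 in furan livers, against 4.99, 5.68, 5.49 and 5.48 in vehicle livers. Vehicle replicate 2 was the lowest of the 8 for Psap, and the change was 0.02 (adjusted p = 0.936). Npc2, which hands cholesterol to Npc1, had a change of -0.03.

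The 2 regulators had changes of opposite sign. Tfe3 had levels of 3.45, 3.39, 3.32 and 3.09 in furan livers, against 2.63, 2.64, 2.63 and 2.51 in vehicle livers. The groups were well separated, the vehicle livers lying within a range of 0.13. The rise was 0.71 ± 0.10 (SE; limma adjusted p = 0.0153), or 1.63-fold with an interval from 1.39-fold to 1.92-fold. A second probe of Tfe3 gave a change of 0.63. Within the 4 slide columns the tested probe was higher by 0.88, 0.68, 0.82 and 0.46. The Tfe3 call was lost without furan replicates 41, 42 and 43 (adjusted p = 0.0522, 0.0523 and 0.0550), with a median shift (0.383), on unshifted values (0.0513), when dim probes were kept (0.0554) and with the slide column as a block (0.134). Tfeb, its close relative, had levels of -0.40, -0.52, -0.04 and -0.43 in furan livers, against 0.08, -0.18, -0.31 and -0.02 in vehicle livers. These overlapped and the change of -0.24 ± 0.14 (SE) did not pass (adjusted p = 0.306).

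**Figure D3:**
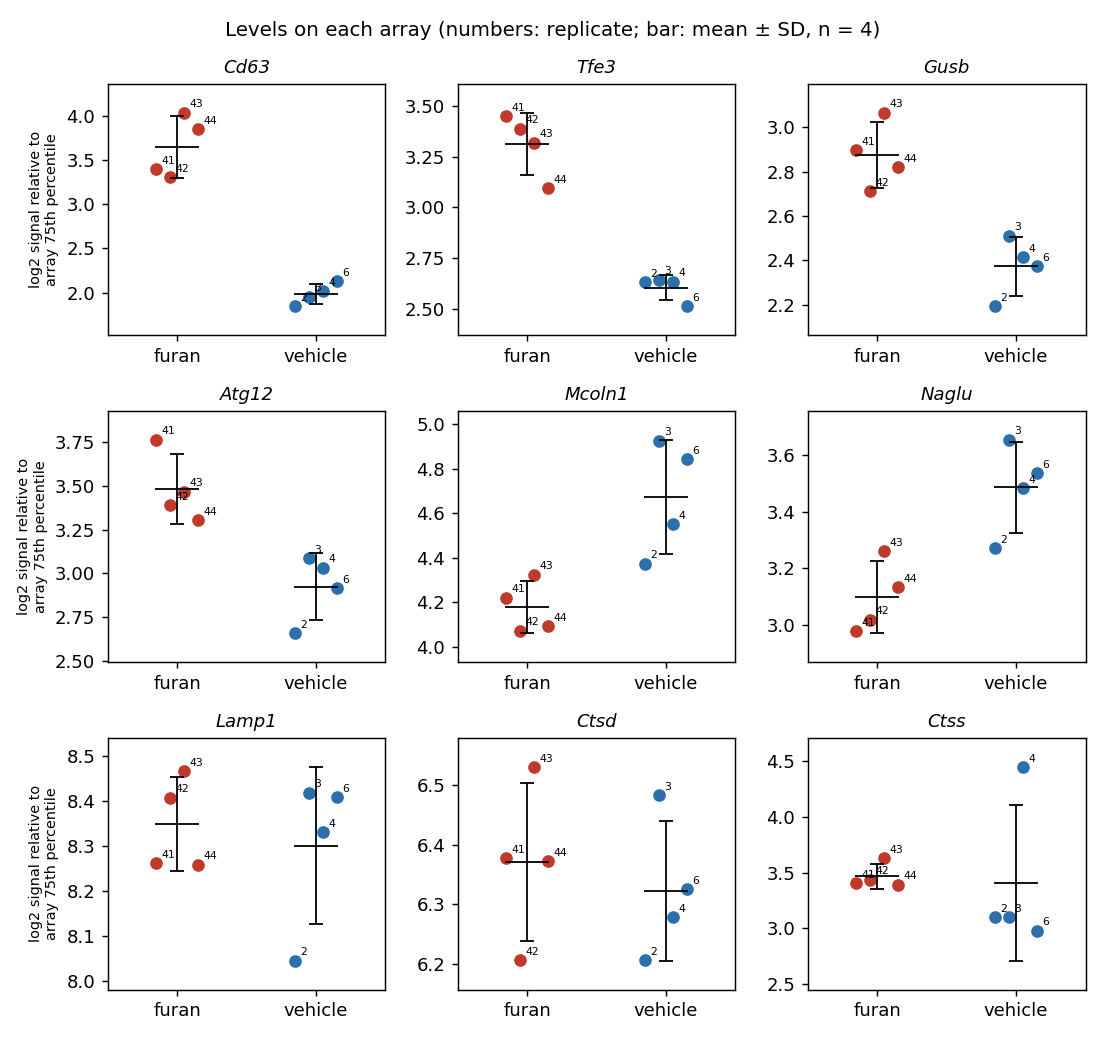
Level (log2 signal relative to the 75th percentile of the array) of 9 genes in each furan (red, left) and vehicle (blue, right) liver, with replicate numbers and mean ± SD (n = 4). Cd63, Tfe3, Gusb and Atg12 are higher and Mcoln1 and Naglu lower in all 4 furan livers, Lamp1 and Ctsd overlap, and Ctss is set apart by vehicle replicate 4.

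The E-box core was counted in the promoter windows of genes with an entry. It was present in 16 of 50 of the genes described here, or 32.0%, against 10.8% of 11976 genes tested on the array with a window and 8.09% of all 27025 genes in the table. By role it was in 11 of 22 hydrolases, in 3 of 6 membrane proteins, in 2 of 17 autophagy factors and in 0 of 2 regulators. Lamp1, Mcoln1, Ctsd, Ctsa and Gla were among those with more than 1 copy. The median GC content was 59.3% for windows of these genes and for windows of tested genes. The 16 genes with the core had a median change of -0.03, ranging from -0.50 for Mcoln1 to 0.21 for Atg7, with 0 past the threshold. The 32 tested genes with a window and no core had a median of -0.06, ranging from -0.37 to 1.66, and included the called Cd63, Gusb and Tfe3. With 4.09% of all features called, so few calls do not allow a comparison of genes with and without the core. A match describes letters only and was not tested as a binding site.

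Among the 20 autophagy factors tested, 0 passed in limma and the median change was -0.01, with 9 above 0 and 11 below and 3 at an unadjusted p under 0.05. Of all 24921 features, 4.09% passed and 23.8% had an unadjusted p under 0.05, with 9872 changes above 0 and 15049 below. Between 0 and 2 passed under the alternatives, with 2 for array weights (Atg12 higher, Atg10 lower) and 2 in the authors' deposited value table (Atg12 higher, Gabarapl1 lower). The share of all features called was 8.05% with array weights and 6.69% in the authors' table.

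The initiation factors lay close to 0. Ulk1, the kinase that starts autophagosome formation, had levels of 6.54, 6.21, 6.21 and 5.75 in furan livers, against 6.02, 6.28, 6.43 and 6.27 in vehicle livers. Its paralogue Ulk2 had levels of 2.47, 2.68, 2.62 and 2.50 in furan livers, against 2.55, 2.46, 2.42 and 2.34 in vehicle livers. Becn1, a subunit of the class III phosphoinositide 3-kinase complex, had levels of 1.31, 1.28, 1.40 and 1.20 in furan livers, against 1.08, 1.34, 1.16 and 1.15 in vehicle livers. The groups overlapped for each of these, and the changes were -0.07, 0.13 and 0.12 (adjusted p = 0.804, 0.389 and 0.426). Atg13, an adaptor of the Ulk1 complex, had a change of 0.06.

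All 4 genes of membrane supply and phosphoinositide binding had changes below 0, from -0.18 to -0.02, none past the threshold. Of all 24921 features, 15049 had changes below 0, and their median was -0.09 over all features. Wipi1, which reads phosphatidylinositol 3-phosphate on the forming membrane, had levels of 1.10, 0.85, 1.00 and 0.57 in furan livers, against 1.29, 1.21, 0.75 and 0.98 in vehicle livers. Wipi2, which recruits Atg16l1 there, had levels of 2.67, 2.66, 2.85 and 2.78 in furan livers, against 2.34, 3.09, 2.67 and 2.95 in vehicle livers. Both overlapped (adjusted p = 0.489 and 0.932), and a second Wipi2 probe gave a change of 0.36. Atg2a, a lipid transfer protein, and Atg9a, a scramblase on seed vesicles, had changes of -0.16 and -0.05.

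In the conjugation system, which attaches Atg12 to Atg5 and Atg8-family proteins to lipid, Atg12 and Atg10 lay at the ends. Atg12, the ubiquitin-like protein itself, had levels of 3.76, 3.39, 3.47 and 3.30 in furan livers, against 2.66, 3.09, 3.03 and 2.91 in vehicle livers. All 4 furan values were above all 4 vehicle values, with a change of 0.56 ± 0.14 (SE; adjusted p = 0.0649). A second probe gave a change of 0.41. Atg12 passed, higher, with the filter on all 8 arrays (adjusted p = 0.0425), the mean of its probes (0.0336), normexp plus quantile normalization (0.0359), the authors' deposited value table (0.0302), array weights (0.0481) and trend and robust (0.0253). It did not pass on dropping any single array (0.0868 to 0.149). Atg10, the enzyme that transfers Atg12, had levels of -0.15, -0.45, -0.18 and -0.14 in furan livers, against -0.15, 0.24, 0.11 and 0.22 in vehicle livers. Vehicle replicate 2 lay within the furan range, and the change of -0.33 ± 0.12 (SE) did not pass (adjusted p = 0.160), except with array weights (0.0493). Atg5, the acceptor of Atg12, had levels of 4.47, 4.21, 4.33 and 4.23 in furan livers, against 3.91, 4.40, 4.35 and 4.32 in vehicle livers (adjusted p = 0.769). The E1-like enzyme Atg7, the protease Atg4b and the scaffold Atg16l1 had changes of 0.21, 0.32 and 0.05.

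Of the 5 Atg8-family genes, whose products coat the autophagosome, 0 passed. Gabarapl1 had levels of 8.81, 8.77, 8.69 and 8.37 in furan livers, against 8.84, 9.14, 8.89 and 9.00 in vehicle livers. All 4 furan values were the lower ones, though furan replicate 41 and vehicle replicate 2 nearly met, and the change of -0.31 ± 0.13 (SE) had an adjusted p of 0.194. In the authors' deposited value table Gabarapl1 passed, lower (0.0382). Gabarapl2 had levels of 4.98, 4.83, 4.85 and 4.80 in furan livers, against 4.24, 4.83, 4.57 and 4.71 in vehicle livers (change 0.28 ± 0.14 SE, adjusted p = 0.258). Map1lc3b, the LC3 form most used to follow autophagy, had levels of 5.04, 4.77, 4.94 and 4.51 in furan livers, against 4.80, 5.10, 4.96 and 5.09 in vehicle livers. The Map1lc3b groups overlapped, with an interval from -0.49 to 0.14 (adjusted p = 0.425). Map1lc3a and Gabarap had changes of -0.24 and -0.0026. The cargo receptor Nbr1 had levels of 1.89, 1.69, 1.90 and 1.72 in furan livers, against 1.73, 2.09, 1.61 and 2.07 in vehicle livers (adjusted p = 0.733).

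**Figure D4:**
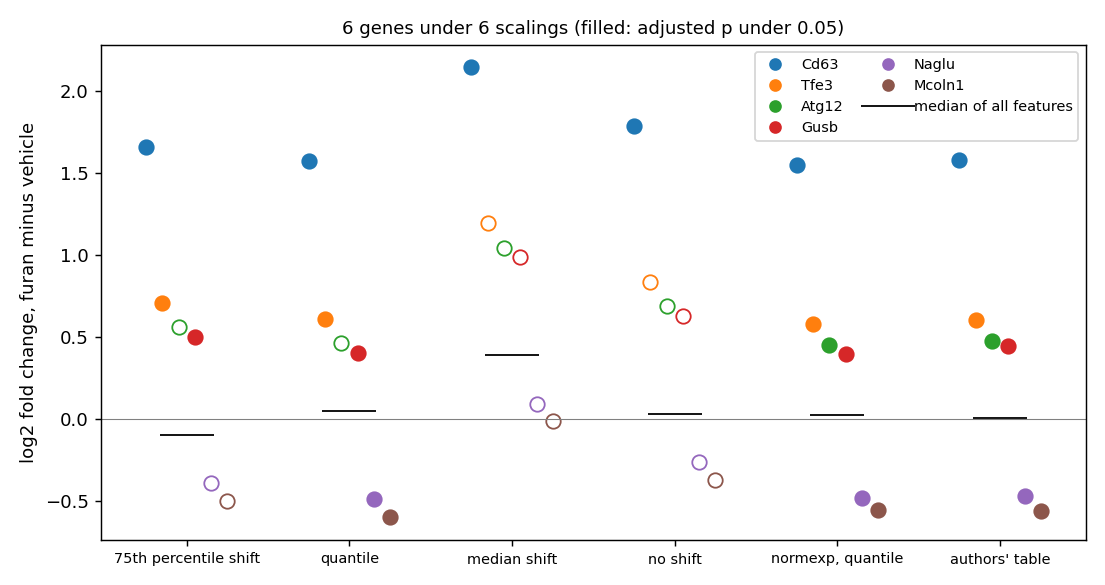
Change in log2 signal (furan minus vehicle) of 6 genes under 6 scalings of the arrays, with the median change of all features as a black line and filled points for an adjusted p under 0.05. Cd63 is filled under each of the 6, and Tfe3 and Gusb under 4. Mcoln1 and Naglu are filled and lower under quantile normalization, normexp plus quantile normalization and the authors' table, and with a median shift Naglu is at 0.095.

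Other genes of the same pathways gave 1 higher and 1 lower of 96 tested, beside 2.78% higher and 1.31% lower of all features. The higher one was Vmp1, an endoplasmic reticulum scramblase needed for autophagosome growth, with levels of 4.89, 4.99, 5.03 and 4.95 in furan livers, against 4.48, 4.48, 4.64 and 4.39 in vehicle livers. The rise was 0.47 ± 0.09 (SE), or 1.38-fold (limma adjusted p = 0.0287). The lower one was Calcoco1, a receptor for autophagy of the endoplasmic reticulum, with levels of -1.53, -1.53, -1.55 and -1.83 in furan livers, against -0.82, -0.91, -0.99 and -1.05 in vehicle livers. Calcoco1 fell by 0.67 ± 0.10 on the log2 scale (SE; limma adjusted p = 0.0186). The groups did not overlap for either gene. Of 13 other settings, 7 lost the Vmp1 call and 6 the Calcoco1 call. Both were lost with quantile normalization (adjusted p = 0.105 for Vmp1 and 0.0747 for Calcoco1), normexp plus quantile normalization (0.0557 and 0.0583), a median shift (0.494 and 0.791), unshifted values (0.110 and 0.130), dim probes kept (0.0958 and 0.0667) and a block for slide column (0.161 and 0.134). Vmp1 was also lost in the authors' deposited value table (0.0538). With a median shift the Calcoco1 change was -0.18. When single arrays were dropped, the Vmp1 call survived the loss of vehicle 2 alone. It was lost on dropping furan 41, 42, 43 or 44 (0.0735, 0.0823, 0.0906 and 0.0794) and vehicle 3, 4 or 6 (0.0668, 0.0501 and 0.0749). The Calcoco1 call survived the loss of vehicle 2 or 6. It was lost on dropping furan 41, 42, 43 or 44 (0.0554, 0.0543, 0.0606 and 0.0503) and vehicle 3 or 4 (0.0524 each).

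Of 16 subunits of the v-ATPase, the proton pump that acidifies the lysosome, 0 passed, 14 had changes above 0 and the median was 0.11. Among all 24921 features, 9872 had changes above 0. Of 22 further hydrolases and cofactors, 15 sorting and membrane genes and 18 genes of nutrient control around mTORC1, 0 passed in each list, with 2, 2 and 6 at an unadjusted p under 0.05, beside 4.09% and 23.8% of all features. Their medians were 0.0005, -0.05 and 0.11, against -0.09 for all features. Over the 8 arrays, the tested symbols whose levels followed Cd63 most closely by Pearson correlation were Gnat2 at 0.991, Zwint at 0.988, Mrps22 and Fstl1 at 0.986 and Chd1l at 0.985. These correlations are a description over 8 arrays that share a slide and fall into 2 groups.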

How the data were processed

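Liver RNA of 4 furan and 4 vehicle mice was measured on 8 arrays. Spot intensity was extracted with Agilent Feature Extraction 11.0.1.1 (array design 028005, 1 colour, 1 slide), per the file headers. The authors' deposited value table is in log2 units. Its normalization and centring remain unknown here. Set against log2 of the median spot signal, its columns correlated at 0.998 for vehicle replicate 2 and at 1.00 for the other 7, and its column medians were 6.53 to 6.58 on furan arrays and 6.54 to 6.74 on vehicle arrays.

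Saturation affected 0 spots. Control spots and 128 to 315 outlier-marked spots an array were dropped. From log2 of the processed signal the 75th percentile of the array was subtracted, replicate spots were averaged, and a probe was kept if 4 or more of the 8 arrays had it well above background (33848 of 55681). The brightest kept probe stood for a gene. Symbols came from RefSeq accessions through a table for GRCm38.p6 (27235 of 28685 probes). The array's annotation is of another build, so coordinates are given only for RefSeq promoter windows. Of the 56 genes tested, 16 had several kept probes, which differed in sign for 5.

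The test was 2-sided, from limma (version 3.58.1, lmFit then eBayes; R version 4.3.3), and p-values were adjusted over 24921 features by Benjamini-Hochberg, with a threshold of 0.05. This code was tested on simulated data. Role classes, other pathway genes and markers were read as counts and medians, with no list test. The members and lists were chosen with earlier results of these data known. Named with values on every array were the genes past the threshold, the extremes of each role class and 8 fixed genes; Man2b1 and Npc1 were added after their values were seen. Alternatives were other scalings, normexp with an offset of 50 on median signals followed by quantile normalization (2 choices changed together), the authors' table, other filters and probe summaries, trend and robust, array weights, slide row or column as a block, and each array left out. The array weight was 0.22 for vehicle replicate 2 and 0.85 to 1.81 for the other arrays. Plots used matplotlib 3.10.9.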

Additional observations from a re-analysis of the deposited data

Results flagged for a closer look

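A value far from the other 3 of its group, by Dixon's test at the 95% level, was found in 5 of the 62 groups of 4 examined. Chance gives about 5% where groups are independent and not selected. Many of the genes examined were named for their changes, and all share the same arrays, so no conclusion is drawn from this count. Ctss was high in vehicle replicate 4, at 4.45 with the nearest vehicle value at 3.10. Atg5 was low in vehicle replicate 2, at 3.91 with the nearest at 4.32. Tfe3 was low in vehicle replicate 6, at 2.51 with the nearest at 2.63. Atg10 was low in furan replicate 42, at -0.45 with the nearest at -0.18, and Calcoco1 was low in furan replicate 44, at -1.83 with the nearest at -1.55.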

How the results depend on the processing

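The number of the 56 genes past the threshold, 3, was 6 with quantile normalization, 8 with normexp plus quantile normalization, 8 in the authors' deposited value table, 6 with trend and robust, 9 with array weights, 1 with a median shift, on unshifted values, when dim probes were kept or at an adjusted p under 0.01, and 0 with the slide column as a block. It ranged from 1 to 4 when 1 array was left out. Of all features, 1019 passed, against 1668 in the authors' table, 1957 with trend and robust, 2005 with array weights, 1713 with the filter on all 8 arrays, 85 with a median shift, 261 with no shift, 158 without the filter, 105 at an adjusted p under 0.01, 0 with the slide column as a block (4721 at an unadjusted p under 0.05), and 170 to 942 with 1 array left out. The fewer calls at 0.01 follow from the stricter threshold; the cause of the other differences was not tested.

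A median shift rests on the median processed signal of each array, which was 130.4 on vehicle replicate 2 and 32.5 to 48.2 on the other arrays. The part of vehicle replicate 2 in this shift was not tested. A median shift moved the median of all features to 0.39, and the class medians to 0.39 for hydrolases, 0.53 for membrane proteins and 0.47 for autophagy factors. With no shift they were 0.0292 for hydrolases and 0.11 for autophagy factors. A median shift added 0.485 to the change of each of the 56 genes and no shift added 0.128, which turned 32 and 15 of them to above 0. Of the 56, 8 turned with quantile normalization, 7 with normexp plus quantile normalization, 6 in the authors' table, 6 with array weights and 4 with the mean of probes, 0 of them past the threshold in any of these 7 settings. Among the genes named with values on every array, those that turned were Asah1 (0.32), Atg10 (0.15), Ctsf (0.15), Gabarapl1 (0.18), Grn (0.17), Lipa (0.40), Man2b1 (0.12), Map1lc3b (0.31), Naglu (0.095), Nbr1 (0.41), Npc1 (0.0725), Tfeb (0.24), Ulk1 (0.41), Wipi1 (0.31) and Wipi2 (0.46) with a median shift. With no shift they were Lipa (0.042), Nbr1 (0.054), Ulk1 (0.057) and Wipi2 (0.10), and with the mean of probes Wipi2 (0.17). With quantile normalization they were Atg5 (-0.036), Ctsd (-0.010), Ctss (-0.037) and Psap (-0.063), and with normexp plus quantile normalization Atg5 (-0.075), Ctsd (-0.012) and Psap (-0.055). In the authors' table they were Atg5 (-0.066), Ctsd (-0.055), Lamp1 (-0.071) and Psap (-0.084), and with array weights Atg5 (-0.030), Ctsd (-9.02e-06), Lamp1 (-0.036) and Psap (-0.089). With 1 array left out, changes ran from -0.049 to 0.12 for Atg5, -0.0044 to 0.10 for Ctsd, -0.083 to 0.41 for Ctss, -0.038 to 0.087 for Lamp1, -0.12 to 0.11 for Psap, -0.19 to 0.071 for Ulk1 and -0.16 to 0.084 for Wipi2.

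The groups share no replicate numbers, so the labels pair no livers; the slide position pairs arrays, and its block is the one given above. With 4 livers a group, the 95% interval reached past 1.5-fold for 14 of the 53 genes not called, and Atg4a and Galc were too dim to test.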
